A study of Mus musculus with 6 samples.

Results

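The non-Hox homeobox genes of 10 families were followed in mouse esophageal epithelium that lacks p63. The rule that picked them used gene symbols only. It took genes of the count table named as a numbered Pax, Lhx, Dlx, Irx, Meis, Pbx, Msx, Pou or Nkx gene. It also took the numbered series that holds Six2 to Six6. Pax1, Pax9, Nkx2-1 and Nkx2-2 were left out. The genes described are 65 of the 69 chosen, in a table of 23284 genes. RNA was sequenced from epithelium isolated from the esophagus at stage E12.5, in 3 p63KO samples (homozygous for Trp63-CreERT2, an allele that carries the tamoxifen-inducible recombinase CreERT2 at the p63 locus) and 3 littermate control samples. The control samples are titled WT, and their alleles at Trp63 are not spelled out further in the labels. No tamoxifen or other agent is named in the labels. The labels do not say how many embryos made up 1 sample, and p-values therefore cover only the spread among the samples at hand, which may be technical.

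Homeobox genes encode transcription factors that bind DNA through a helix-turn-helix fold, the homeodomain, and they set regional and cell identity in the embryo. The families differ in what accompanies it: a paired domain in Pax proteins, a second conserved domain in the Six2 to Six6 proteins, LIM zinc fingers in Lhx and a POU-specific domain in Pou proteins, while Irx, Meis and Pbx belong to the TALE class with an enlarged homeodomain loop. Some Pax proteins, such as Pax2, Pax5 and Pax8, keep only part of the homeodomain. p63, encoded by Trp63, is the transcription factor that stratified epithelia such as the esophageal lining require.

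Total counts lay between 13335328 and 16506401 in the p63KO libraries and between 16948971 and 20093838 in the control libraries, where 3 counts corresponded to 0.153 to 0.223 CPM (counts relative to library size, scaled by the TMM method). Trp63 was 76.7, 62.2 and 75.4 CPM in the p63KO libraries, against 583.9, 674.1 and 550.6 CPM in the control libraries, so each library matched its label. The listed epithelial markers other than Krt14 were present in every library, and Krt14 was at 0.0743 CPM in p63KO replicate 3, under 3 counts. The 9 listed genes summed to 3562.0 to 3637.0 CPM in p63KO and 3546.0 to 3688.0 CPM in control, but among them Krt8, Krt18 and Foxa2 rose, Krt5 and Cdh1 fell and 4 did not pass. Krt5, a basal-cell keratin, was 6.95 ± 4.52 CPM in p63KO and 233.6 ± 56 CPM in control. The 8 neuroendocrine markers summed to 400.5 to 498.0 CPM in p63KO and 2.55 to 7.04 CPM in control, and all 8 rose. Among them, Neurog3, Neurod1, Chga, Chgb and Scgn were under the count filter (0.598 CPM in 3 libraries) in every control library. These genes entered the test through their p63KO libraries alone, so a fall could not have been called for them. Of 10 neuronal and enteric neural crest markers, 4 rose (Tubb3, Elavl3, Elavl4 and Stmn2) and 6 did not pass, with sums of 320.1 to 341.0 CPM in p63KO and 160.9 to 170.8 CPM in control. Most of the control sum was Erbb3, which did not pass (145.3 ± 16.8 CPM in p63KO and 142.4 ± 3.07 CPM in control). Tubb3, the most abundant of the 4 in p63KO, was 90.65 ± 13.8 CPM there and 1.74 ± 0.848 CPM in control. Of 9 mesenchyme markers, 3 rose (Dcn, Tbx18 and Twist1), 3 fell and 3 did not pass (median log2 fold change -0.81), with sums of 1303.0 to 1703.0 CPM in p63KO and 438.2 to 519.8 CPM in control. The falls among them numbered 0 with control replicate 1 left out, and 1 when the library dropped was control replicate 3 or a p63KO library other than replicate 1. Of 4 tested cartilage markers 3 fell and 1 (Col9a1) rose, a call lost in some fits with 1 library left out. List sums were 407.9 to 540.8 CPM in p63KO and 993.5 to 1406.0 CPM in control. Most of the sum was Col2a1 (425.8 ± 65.2 CPM in p63KO and 983.7 ± 185.5 CPM in control). Acan and Matn1 were too low to be tested, at no more than 0.511 CPM in any library. Of 3 tested pharyngeal markers 2 fell, with list sums of 12.4 to 20.2 CPM in p63KO and 93.3 to 117.1 CPM in control. Of 6 endothelial markers 1 rose, a call lost with control replicate 3 or any p63KO library left out, and the 3 tested blood markers did not pass, although 2 rose once control replicate 3 was left out. Control replicate 3 stood apart: 13 genes of gut, pancreas and liver endoderm summed to 157.2 CPM there, against 1.93 to 2.60 CPM in p63KO and 0.430 and 0.613 CPM in the other control libraries. It also held 58 genes above 5 CPM and over 4 times every other library's value plus 1 CPM, and none of the 65 homeobox genes was among them. These are bulk samples, in which fewer cells of a type and less RNA per cell cannot be told apart.

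Of the 65 homeobox genes, 21 had enough counts to be tested, 32 had some counts but too few, and 12 had no count in any library. In the edgeR quasi-likelihood test with Benjamini-Hochberg adjustment over all 13849 genes tested, 9 of the 21 rose and 4 fell in p63KO at an adjusted p under 0.05, and 8 did not pass. Over all genes tested, 29.6% were called, 15.3% higher and 14.3% lower, beside 13 of 21 (61.9%) here. The share of 21 is no measure of enrichment, since some genes entered the test only because 1 group was high. Irx1, Pax3 and Pou3f4 passed the count filter (0.598 CPM in 3 libraries) through their p63KO libraries alone. Of the 14 tested homeobox genes with a mean of at least 5 CPM over the 6 libraries, 5 rose and 4 fell, where 29.9% of all genes at that level were called. The median log2 fold change of the 21 was 0.36, against -0.01 for all genes tested. Since Irx1, Pax3 and Pou3f4 entered only with p63KO high, neither this median nor the counts of groups apart measure a shift. Of the 7 tested homeobox genes with a mean under 5 CPM, 4 rose and 0 fell. Both groups were fully apart for 15 of the 21, against 44.0% of all genes tested. The p63KO libraries lay above the control libraries for 10 of them and below for 5, where 21.8% of all genes tested were apart with p63KO higher and 22.2% with p63KO lower.

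With single libraries left out, 3 or 4 genes fell and 8 to 11 rose. For 11 of the 13 changed genes the call held with every library left out in turn. The calls of Irx2 and Six5 did not. All 13 calls held without control replicate 3.

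**Figure D1:**
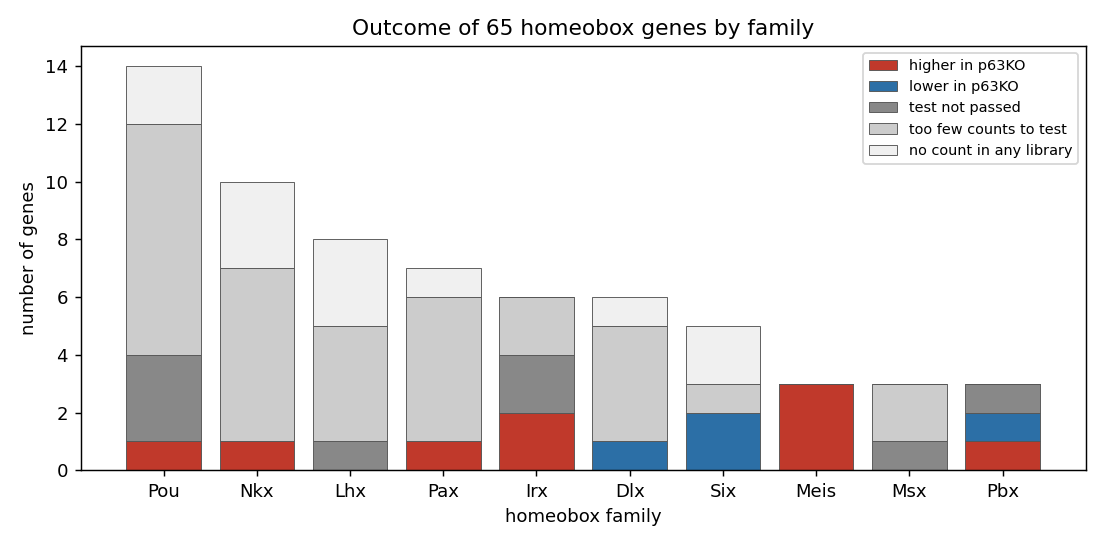
Number of genes (vertical axis) in each of the 10 homeobox families (horizontal axis), divided into genes higher in p63KO, lower in p63KO, tested without passing, with too few counts to test, and with no count in any library. All 3 Meis genes were higher and the 2 tested genes of Six2 to Six6 were lower, while 10 of 14 Pou genes and 9 of 10 Nkx genes were not tested.

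**Figure D2:**
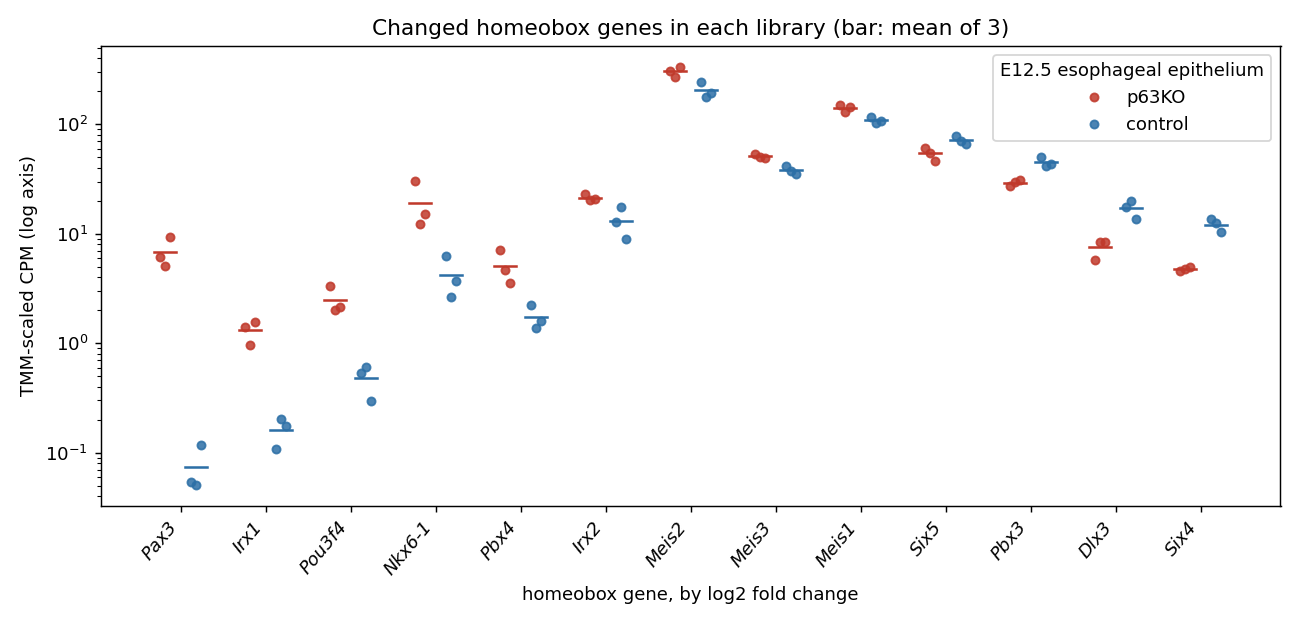
TMM-scaled CPM on a log axis for the 13 changed homeobox genes, ordered by log2 fold change, with p63KO libraries (red) left of control libraries (blue), 1 point per library and a bar at the mean of 3. Points of the 2 groups do not overlap for any of the 13, and levels run from 0.051 CPM (Pax3 in control replicate 2) to 334.8 CPM (Meis2 in p63KO replicate 3).

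The steepest rises were those of Pax3, Irx1, Pou3f4 and Nkx6-1. Of these, Pax3, Irx1 and Pou3f4 entered the test through their p63KO libraries alone. A fall could not have been called for them, and their adjusted p-values below carry that limit. Pax3, a paired-box factor of the dorsal neural tube, neural crest and muscle progenitors, was nearly silent in control. Pax3 had 6.14, 5.12 and 9.28 CPM in the p63KO libraries, against 0.0537, 0.0511 and 0.118 CPM in the control libraries. In raw reads this was 104, 74 and 125 counts in the p63KO libraries and 1, 1 and 2 counts in the control libraries. Every p63KO library was far above every control library (log2 fold change 6.42, SE 0.44, edgeR adjusted p = 7.3e-06). The skeletal muscle markers Myod1, Myf5, Myog and Myf6 were too low to be tested, at no more than 0.236 CPM in any p63KO library and 0.430 CPM in any control library. Among the neural crest markers, Sox10 was 1.26 ± 0.718 CPM in p63KO and 3.26 ± 1.82 CPM in control and Foxd3 0.462 ± 0.368 CPM in p63KO and 1.2 ± 0.467 CPM in control, neither past the test (edgeR adjusted p = 0.088 and 0.12).

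Nkx6-1 encodes a homeodomain factor of motor neuron progenitors and pancreatic beta cells. Nkx6-1 had 30.3, 12.3 and 15.2 CPM in the p63KO libraries, against 6.23, 2.66 and 3.71 CPM in the control libraries. The groups were apart, and 1 library stood highest in each, p63KO replicate 1 and control replicate 1, so the SD was large in both (19.2 ± 9.66 CPM in p63KO and 4.2 ± 1.84 CPM in control; SD, n = 3 each). The change was 2.20 on the log2 scale (SE 0.39, edgeR adjusted p = 0.0025) and ranged over 1.71 to 2.60 with 1 library left out. With the replicate number as a block it was 2.18 (SE 0.13, edgeR adjusted p = 2.9e-05). The summed neuroendocrine markers were 498.0 CPM in p63KO replicate 1, and 400.5 and 417.8 CPM in p63KO replicates 2 and 3; their part in the Nkx6-1 rise was not tested.

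Pou3f4, a POU factor of the neural tube, inner ear and pancreatic alpha cells, was low in both groups. Pou3f4 had 3.31, 2.01 and 2.15 CPM in the p63KO libraries, against 0.537, 0.613 and 0.294 CPM in the control libraries. All p63KO values exceeded all control values (log2 fold change 2.35, SE 0.38, edgeR adjusted p = 0.0015). It was the only tested Pou gene that changed. Pou2f1, the widely expressed octamer-binding factor Oct-1, had 103.6 ± 10.9 CPM in p63KO and 107.0 ± 9.3 CPM in control, at -0.05 on the log2 scale (SE 0.09, edgeR adjusted p = 0.76). Pou6f1 was at 0.23 (SE 0.10, edgeR adjusted p = 0.14), with 33.5 ± 2.49 CPM in p63KO and 28.6 ± 2.81 CPM in control. Pou2f2, the lymphoid octamer factor, was at 1.08 with an SE of 0.58 (edgeR adjusted p = 0.2), and its libraries overlapped.

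Promoter sequence is shown for Six4, the fall with the lowest p, and for Nkx6-1 and Pou3f4, 2 of the steepest rises, to set genes of opposite direction side by side. RefSeq promoters of build GRCm38.p6 were matched by symbol for 49 of the 65 genes and 9 of the 13 changed ones. The 250 bases before the start lie at chr12:73113426-73113675 (minus strand) for Six4, at chr5:101664712-101664961 (minus strand) for Nkx6-1 and at chrX:110814129-110814378 (plus strand) for Pou3f4, written 5′ to 3′ on the gene's strand. Capitals mark CNNGNNNNNNCNNG, the spaced core shared by binding sites of the p53 family, which reads the same on both strands.

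Six4: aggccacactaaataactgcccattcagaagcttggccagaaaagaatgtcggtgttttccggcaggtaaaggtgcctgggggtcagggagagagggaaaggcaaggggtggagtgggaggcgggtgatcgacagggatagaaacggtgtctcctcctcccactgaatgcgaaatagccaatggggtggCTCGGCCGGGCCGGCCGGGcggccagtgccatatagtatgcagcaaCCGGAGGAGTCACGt

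Nkx6-1: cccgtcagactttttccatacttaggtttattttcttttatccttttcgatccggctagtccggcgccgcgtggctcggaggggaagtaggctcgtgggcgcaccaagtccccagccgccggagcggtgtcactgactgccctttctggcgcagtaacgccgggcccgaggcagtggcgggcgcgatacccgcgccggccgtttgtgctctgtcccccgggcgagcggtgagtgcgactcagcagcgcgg

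Pou3f4: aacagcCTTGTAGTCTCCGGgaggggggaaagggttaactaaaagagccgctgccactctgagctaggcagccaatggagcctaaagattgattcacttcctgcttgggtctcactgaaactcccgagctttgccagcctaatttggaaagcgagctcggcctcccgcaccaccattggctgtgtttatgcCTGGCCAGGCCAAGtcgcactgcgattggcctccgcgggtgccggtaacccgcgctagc

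The printed Six4 window held 3 matches, of which those in the first run of capitals overlap, Pou3f4 held 2 and Nkx6-1 none. RefSeq lists another start of Six4, whose window at chr12:73113246-73113495 (minus strand) overlaps the printed one and held 5 matches. The pattern is loose and 63.5% of the 32851 RefSeq promoter windows of this length held it. The homeodomain core TAAT, searched on both strands and not marked, occurred in the Pou3f4 window and in the other Six4 window, not in the printed Six4 and Nkx6-1 windows, and in 54.9% of all windows. Matches are descriptions of letters and not evidence of binding.

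The Iroquois genes lie in gene clusters, and the pair Irx1 and Irx2, neighbours in the RefSeq annotation, rose. Irx1 had 1.42, 0.97 and 1.56 CPM in the p63KO libraries, against 0.107, 0.204 and 0.177 CPM in the control libraries. This Iroquois factor of lung, heart and other organs was thus detected in control at a few reads per library (2, 4 and 3 counts), and all p63KO libraries were above them (log2 fold change 2.96, SE 0.47, edgeR adjusted p = 0.0012). Irx2 had 23.3, 20.4 and 20.6 CPM in the p63KO libraries, against 12.7, 17.5 and 8.89 CPM in the control libraries. The groups did not overlap (log2 fold change 0.72, SE 0.21, edgeR adjusted p = 0.032), but leaving out control replicate 1 gave an edgeR adjusted p of 0.085, and leaving out p63KO replicate 1, 2 or 3 gave 0.11, 0.057 or 0.076. The neighbouring pair Irx3 and Irx5 did not pass. Irx5 had 23, 26.5 and 27.6 CPM in the p63KO libraries, against 18.4, 30 and 14 CPM in the control libraries, with control replicate 2 above every p63KO library. Without that library Irx5 was higher by 0.66 (SE 0.15, edgeR adjusted p = 0.013), against 0.30 (SE 0.24, edgeR adjusted p = 0.40) with all 6. Irx3 had 11.7, 18.1 and 14.6 CPM in the p63KO libraries, against 10.2, 21.2 and 9.54 CPM in the control libraries, again with control replicate 2 highest, and its fitted change of 0.11 (SE 0.30) took a negative sign when control replicate 1 (-0.07), control replicate 3 (-0.095) or p63KO replicate 2 (-0.04) was dropped. An antisense gene, Irx3os, overlaps Irx3, and the strand setting of the counts is not given. Irx4 and Irx6 had 1 and 0 counts over the p63KO libraries and 6 each over the control libraries, all in control replicate 1.

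Meis and Pbx proteins are partner factors: Pbx and Meis bind DNA with each other and with Hox proteins. Relative to exon length in the GENCODE M21 annotation, they were among the most abundant homeobox genes, led by Pbx2 (65.4 CPM per kb in p63KO and 72.6 in control) and Meis2 (25.2 and 17.0 CPM per kb). All 3 Meis genes rose, each by less than 1.5-fold. Meis1 had 148.8, 128.2 and 142.7 CPM in the p63KO libraries, against 116.1, 103.4 and 107.8 CPM in the control libraries. Meis2 had 306.5, 270.5 and 334.8 CPM in the p63KO libraries, against 244.9, 177.7 and 192.7 CPM in the control libraries. Meis3 had 54.1, 50.2 and 48.7 CPM in the p63KO libraries, against 41.2, 37.4 and 35 CPM in the control libraries. For each gene the lowest p63KO library was above the highest control library. The log2 fold changes were 0.36 (SE 0.08), 0.57 (SE 0.12) and 0.43 (SE 0.09) for Meis1, Meis2 and Meis3 (edgeR adjusted p = 0.0062, 0.0069 and 0.0044), and the highest adjusted p with 1 library left out was 0.028, 0.035 and 0.022. All 3 stayed higher under both other scalings of the libraries. The summed mesenchyme markers given above were also higher in p63KO, most of the sum being Dcn (1222.0 ± 150.8 CPM in p63KO and 159.0 ± 49.1 CPM in control). The list itself was mixed: 3 markers rose, 3 fell and 3 did not pass, with a median log2 fold change of -0.81. The part of these markers in the Meis rises was not tested.

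The Pbx family split. Pbx3 fell: 27.3, 29.6 and 30.8 CPM in the p63KO libraries, against 50.4, 41.4 and 43.6 CPM in the control libraries (log2 fold change -0.63, SE 0.10, edgeR adjusted p = 0.0011). Pbx4, the least abundant of the family, rose: 7.08, 4.71 and 3.56 CPM in the p63KO libraries, against 2.26, 1.38 and 1.59 CPM in the control libraries (log2 fold change 1.56, SE 0.32, edgeR adjusted p = 0.0056). Neither gene's libraries overlapped between groups. Pbx2 was 238.2 ± 10 CPM in p63KO and 264.4 ± 7.08 CPM in control and did not pass (log2 fold change -0.15, SE 0.06, edgeR adjusted p = 0.082), but passed with the replicate number as a block (edgeR adjusted p = 0.046). An exon of Gpsm3 overlaps Pbx2 on the same strand.

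A further list, chosen with these results known, held 6 genes: TALE genes and Pbxip1, a gene of a Pbx-interacting protein outside the TALE class. Of the 6 genes, 3 fell and 3 did not pass, with a median log2 fold change of -0.15. Among all genes tested, 29.6% were called. Tgif2 and Tgif1, which repress transcription in the TGF-beta pathway, fell, Tgif2 to 66.3 ± 5.05 CPM in p63KO, against 128.9 ± 11.2 CPM in control (log2 fold change -0.96, SE 0.09), and Tgif1 by 0.37 on the log2 scale (SE 0.07). Pknox2, a Meis-like Pbx partner, was 3.6 ± 1.53 CPM in p63KO and 9.35 ± 2.4 CPM in control (log2 fold change -1.38, SE 0.31, edgeR adjusted p = 0.0086).

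**Figure D3:**
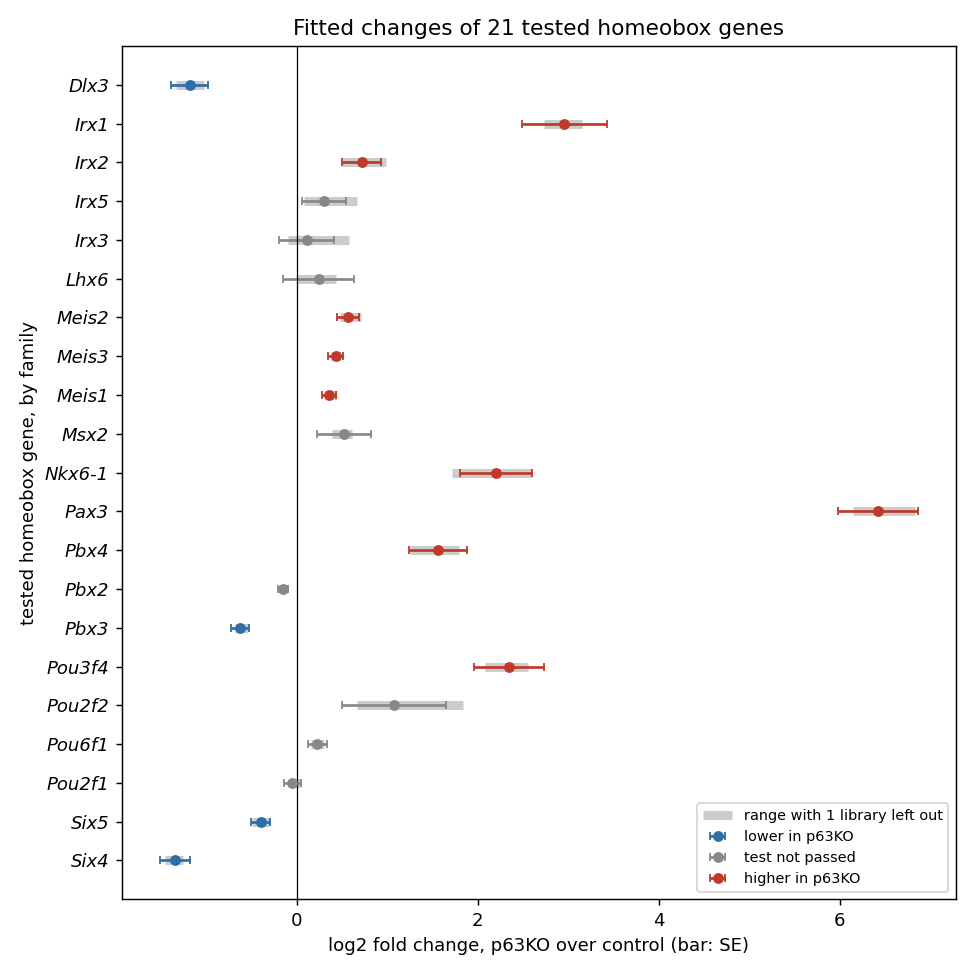
Log2 fold change of p63KO over control (horizontal axis) for the 21 tested homeobox genes, by family (vertical axis), with SE bars and a grey band for the range with 1 library left out. Pax3 lies at 6.42, the 3 Meis genes between 0.36 and 0.57, and Six4 and Six5 at -1.35 and -0.40.

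Of Six2 to Six6, whose products work with Eya co-activators in muscle, kidney and sensory placodes, Six4 and Six5 were tested, and both fell. Six4 had 4.54, 4.78 and 4.97 CPM in the p63KO libraries, against 13.6, 12.4 and 10.3 CPM in the control libraries. The p63KO libraries lay close together and well under the control range (log2 fold change -1.35, SE 0.17, edgeR adjusted p = 0.00029), 39.3% of the control level. Six5 had 61.1, 54.6 and 46.6 CPM in the p63KO libraries, against 77.4, 70.4 and 66.5 CPM in the control libraries, a smaller fall (log2 fold change -0.40, SE 0.10, edgeR adjusted p = 0.017) whose edgeR adjusted p was 0.064 after leaving out control replicate 1, 0.057 after p63KO replicate 2 and 0.054 after p63KO replicate 3. Six2, the nephron progenitor factor, was not tested in the edgeR fit, with 5, 3 and 3 counts in the p63KO libraries and 10, 16 and 13 counts in the control libraries. Every control library was above every p63KO library, and without a filter its log2 fold change was -1.51 (edgeR adjusted p = 0.071). Six3 and Six6, of forebrain and eye, had no count.

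Of 6 listed Eya and Dach genes, the partners of these proteins, 3 fell, 1 rose and 2 did not pass (median log2 fold change -0.23). Among all genes tested, 29.6% were called. Eya4 was 11.4 ± 3.75 CPM in p63KO and 27.7 ± 4.54 CPM in control (log2 fold change -1.28, SE 0.23, edgeR adjusted p = 0.0028). Dach1 fell to 7.39 ± 0.512 CPM in p63KO, against 16.1 ± 3.28 CPM in control, while its paralog Dach2 rose to 22.7 ± 1.62 CPM, against 13.4 ± 0.683 CPM in control. Eya2 was lower by 0.45 on the log2 scale (SE 0.15, edgeR adjusted p = 0.044), a call that missed the threshold with control replicate 1 left out (0.12), with p63KO replicate 2 or 3 left out (0.16 and 0.13), and with DESeq2 (0.1), upper-quartile scaling (0.06) or robust dispersions (0.091). Eya3 was at 0.00 (SE 0.07) and Eya1 at 0.17 (SE 0.14). Of 9 skeletal and smooth muscle markers 5 were tested, of which the smooth muscle genes Acta2, Actg2 and Myh11 fell and none rose, with sums over the 9 of 31 to 56.6 CPM in p63KO and 77.9 to 177.1 CPM in control. The falls numbered 2 when the first library of either group was dropped, and 1 when p63KO replicate 3 was dropped or dispersions were robust. Their part in the Six4 fall was not tested.

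Most Dlx, Msx and Nkx genes were near 0. Dlx3, which is required in epidermis, hair and tooth, was the tested Dlx gene. Dlx3 had 5.78, 8.38 and 8.47 CPM in the p63KO libraries, against 17.7, 20.1 and 13.5 CPM in the control libraries. The groups were apart (log2 fold change -1.19, SE 0.20, edgeR adjusted p = 0.0018), and p63KO held 44.0% of the control level. The other Dlx genes had few reads: Dlx4, the neighbour of Dlx3, had 4, 4 and 2 counts in the p63KO libraries and 8, 7 and 8 counts in the control libraries, so each p63KO library was under each control library. Without a filter Dlx4 was at -0.89 (edgeR adjusted p = 0.37). Dlx2 had 7, 6 and 1 counts in the p63KO libraries and 6, 6 and 5 counts in the control libraries and Dlx1 2, 4 and 0 counts in the p63KO libraries and 1, 6 and 4 counts in the control libraries, Dlx5 had 2 counts over p63KO and 6 over control, and Dlx6 had none. Msx2, a BMP-responsive repressor, had 1.42, 1.52 and 1.93 CPM in the p63KO libraries, against 1.18, 1.07 and 1.12 CPM in the control libraries. Its libraries did not overlap, but the test was not passed (log2 fold change 0.52, SE 0.29, edgeR adjusted p = 0.23). Msx1 and Msx3 had 1 count each over all libraries.

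Of 4 listed Id genes, inhibitors of basic helix-loop-helix factors that respond to BMP, Id4 and Id1 rose and Id2 and Id3 did not pass (median log2 fold change 0.28). Among all genes tested, 29.6% were called. Id4 was 53.4 ± 5.96 CPM in p63KO and 13.9 ± 2.81 CPM in control (log2 fold change 1.95, SE 0.15, edgeR adjusted p = 1.4e-05) and Id1 34.9 ± 1.64 CPM in p63KO and 21.6 ± 2.75 CPM in control (log2 fold change 0.70, SE 0.11, edgeR adjusted p = 0.0013).

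Nkx6-1, given above, was the tested Nkx gene described here. Of the other 9 Nkx genes, which were not tested, none had more than 6 counts over the 6 libraries. They include the heart factor Nkx2-5 with 1 count and the stomach factor Nkx6-3 with 4 counts over p63KO and 2 over control.

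LIM homeodomain genes of the Lhx family were nearly absent. Lhx6, a factor of interneurons and of jaw and tooth mesenchyme, was the tested member, with 18, 9 and 11 counts in the p63KO libraries and 11, 13 and 15 counts in the control libraries (log2 fold change 0.24, SE 0.39, edgeR adjusted p = 0.7). Lhx2 had 4, 5 and 3 counts in the p63KO libraries and 3, 5 and 8 counts in the control libraries. Lhx3, of pituitary and motor neurons, had 14, 8 and 6 counts in the p63KO libraries and 0, 0 and 4 counts in the control libraries, and all 4 control counts came from replicate 3. Without a filter it was at 2.93 (edgeR adjusted p = 0.053). Lhx1, Lhx4 and Lhx9 had no count, Lhx5 had 1 in each group and Lhx8 had 1 over p63KO and 4 over control.

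In a list of 13 LIM homeodomain relatives and their cofactors, 9 were tested, 4 rose, 1 fell and 4 did not pass (median log2 fold change 0.27), where 29.6% of all genes tested were called. Lmx1b, of dorsal limb and serotonergic neurons, was 3.4 ± 0.379 CPM in p63KO and 0.0869 ± 0.0786 CPM in control (log2 fold change 5.12, SE 0.52, edgeR adjusted p = 7.7e-05). Like Pax3, Lmx1b passed the count filter through its p63KO libraries alone. Isl2, of motor neurons, was 3.54 ± 0.419 CPM in p63KO and 1.26 ± 0.465 CPM in control (log2 fold change 1.48, SE 0.32, edgeR adjusted p = 0.0071), and Isl1 rose by 3.61 (SE 0.24). Lmo4, a LIM-only protein that competes for the cofactor Ldb1, fell to 95.7 ± 9.96 CPM in p63KO, against 150.7 ± 6.74 CPM in control (log2 fold change -0.66, SE 0.08). Ldb1 itself was 323.6 ± 30.3 CPM in p63KO and 344.2 ± 29.4 CPM in control and did not pass (edgeR adjusted p = 0.51). Ssbp3, an Ldb1 partner, rose by 0.27 (SE 0.07, edgeR adjusted p = 0.019), a call that missed the threshold when control replicate 2 or 3 (0.068 and 0.055) or p63KO replicate 1 or 3 (0.059 and 0.053) was dropped. Of 6 Groucho co-repressor genes, which many homeodomain proteins recruit, Tle4 fell (-0.43, SE 0.07) and Tle1 rose (0.26, SE 0.07). For Tle1, edgeR gave an adjusted p of 0.068 or 0.088 on leaving out control replicate 1 or 3 and of 0.063 or 0.061 on leaving out p63KO replicate 2 or 3, and 4 genes of that list did not pass.

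The remaining Pax and Pou genes were below the filter, and several had reads mainly in p63KO. Pax4, which directs pancreatic endocrine precursors toward beta and delta cells, had 23, 6 and 9 counts in the p63KO libraries and 0, 1 and 0 counts in the control libraries. The depth-scaled ratio was 46.8 (exact 95% interval 7.9 to 1895.0, counting error only), and without a filter the gene was higher in p63KO (edgeR adjusted p = 0.0026). DESeq2 gave an adjusted p of 0.0021. Pax2, of kidney and midbrain-hindbrain boundary, had 3, 4 and 3 counts in the p63KO libraries and 0, 0 and 0 counts in the control libraries, at least 4.1-fold higher in p63KO if the control group is given a floor of 3 counts in all. Without a filter it passed (edgeR adjusted p = 0.036), and not with DESeq2 (adjusted p = 0.1).

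Pax6, of eye, brain and pancreatic islet cells, had 8, 1 and 4 counts in the p63KO libraries and 1, 0 and 4 counts in the control libraries, and the groups overlapped. Of its 5 control counts, 4 came from control replicate 3, the library that stood apart in gut, pancreas and liver markers. Pax7, of muscle stem cells and neural crest, had 3, 6 and 0 counts in the p63KO libraries and 0, 0 and 2 counts in the control libraries, also overlapping (edgeR adjusted p = 0.37 and 0.32 for Pax6 and Pax7 without a filter). Pax5 had no count and Pax8 had 1, in control.

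Pou4f1, a POU factor of sensory neurons, had 7, 13 and 12 counts in the p63KO libraries and 6, 3 and 2 counts in the control libraries, so every p63KO library was above every control library. Without a filter it was at 1.84 (edgeR adjusted p = 0.059). Of the 4 fits with 1 library left out that tested it, it passed without control replicate 1 or p63KO replicate 1 (0.048 and 0.039) and not without control replicate 2 or 3 (0.13 and 0.11). Pou5f1, the pluripotency factor Oct4, had 7, 1 and 2 counts in the p63KO libraries and 0, 1 and 0 counts in the control libraries, and pseudogene copies of it may share reads. Pou3f1, of Schwann cells and epidermis, had 10, 11 and 2 counts in the p63KO libraries and 8, 11 and 4 counts in the control libraries and Pou2f3, of tuft cells and epidermis, had 3, 5 and 0 counts in the p63KO libraries and 5, 6 and 8 counts in the control libraries. Neither was past the test without a filter (edgeR adjusted p = 0.81 and 0.51), and Pou3f3 had 4 counts over p63KO and 9 over control. Altogether 17 of the 44 untested genes had between 1 and 8 counts over the 6 libraries, among them Pou3f2 with 3 counts in p63KO replicate 3 alone, and Pou4f2, Pou5f2, Nkx2-3, Nkx2-4, Nkx2-9 and Nkx3-2 with no more than 5 each. Beside the genes already given as without counts, none was found for Pou1f1, Pou4f3, Nkx1-2, Nkx2-6 or Nkx6-2.

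**Figure D4:**
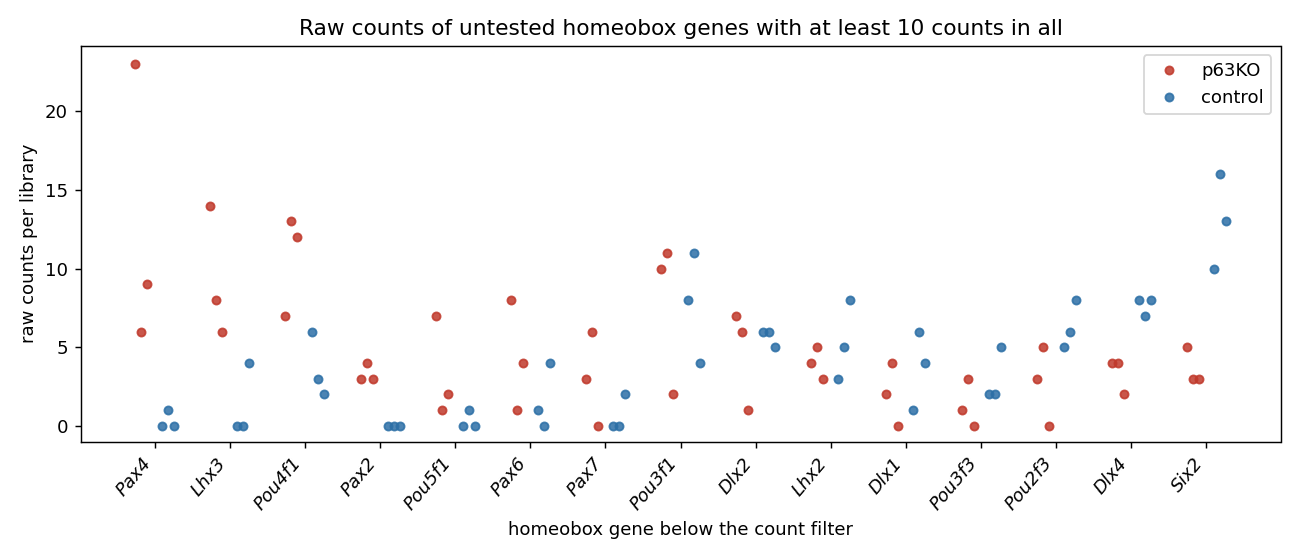
Raw counts per library (vertical axis) of the 15 homeobox genes that were not tested but had at least 10 counts in all (horizontal axis), with p63KO (red) left of control (blue). Pax4 reaches 23 counts in p63KO replicate 1 and at most 1 in control, and Six2 has 3 to 5 counts in p63KO and 10 to 16 in control.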

How the data were processed

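The authors deposited 1 table of raw counts, whole numbers per gene symbol with no normalization, for 6 libraries. The submitters' processing notes name bcl2fastq 1.8.4, TopHat2 2.1.0, DESeq2 and build mm9. Counter, annotation and strand setting are not stated in those notes or the labels, which leaves reads of overlapping, antisense and near-identical genes uncertain. Libraries were made with a TruSeq kit and read for 100 bases, per the labels' protocols.

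The test was run with edgeR 4.0.16 in R 4.3.3. Of 18572 genes with a count, filterByExpr (minimum count 10, minimum total 15) retained 13849. After TMM scaling, a quasi-likelihood test compared p63KO with control on a design holding group alone, with Benjamini-Hochberg adjustment over every gene tested. SE is the size of the log2 fold change divided by the square root of F. Replicates differed beyond sampling noise in every pair (chi-square per degree of freedom 7.53 to 15.3). Intervals and floors cover counting error only. Exon lengths and overlaps came from GENCODE M21, and neighbours and promoters from RefSeq GRCm38.p6. Both are of another build than mm9 and were used by symbol.

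Members and lists were chosen with earlier results of these data known. Of the 69 genes chosen by symbol, 4 are not reported here, and counts and figures leave them out. Named genes were every changed member, every other tested member with at least 5 CPM in a group, and untested members with at least 10 counts. Other genes named were chosen after their values were seen. Alternatives were DESeq2 1.42.0, limma-voom (limma 3.58.1), 2 other scalings, no filter, at least 1 CPM in 3 libraries, robust estimates of dispersion, a replicate block and each library left out. The test was tried on simulated data before use.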

Additional observations from a re-analysis of the deposited data

How the results depend on the processing

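The numbers of homeobox genes that rose and fell (9 and 4) stayed within 1.5 times under RLE and upper-quartile scaling, DESeq2, limma-voom, robust dispersions, no filter and a filter of 1 CPM in 3 libraries, at 8 to 11 rises and 4 falls. With 1 library left out they ranged from 8 to 11 rises and from 3 to 4 falls, and those fits had fewer samples. Over all genes, 2113 rises and 1985 falls became 1650 to 1965 and 1500 to 1806 with 1 library left out. The replicate numbers were not taken to pair the samples in the main fit. Same-numbered libraries nevertheless deviated together with correlations of 0.202, 0.273 and 0.049, and each correlated best with its own number. As a replicate block the number gave 9 rises and 5 falls among the homeobox genes, and 2397 and 2381 over all genes. Of 143 values, those of the 18 tested genes that had changed or reached 5 CPM in a group, under settings other than leaving out a library, 142 kept their direction and side of the threshold, and of 108 with a library left out 95 did. Changes of sign were those of Irx3 (0.11 with all libraries), which ranged from -0.095 to 0.58 with 1 library left out and also took -0.066 and -0.038, and of Pou2f1 (-0.05), which ranged from -0.087 to 0.037 and also took 0.026. None of these values passed the test, and the cause was not tested. Depth limits the 44 untested genes: 3 counts are 0.153 to 0.223 CPM, and a gene without counts was not detectable at this depth.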
